A study of Rattus norvegicus with 72 samples.

Results

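Cytochrome P450 genes of families 1 to 3 were taken as the rows of the deposited count tables whose symbol is Cyp, the digit 1, 2 or 3, a single letter and a number. The rule found 34 of 32545 genes, with 32 different symbols, since Cyp2c13 and Cyp3a9 each stand under 2 gene IDs. Family 1 gave 3 rows, family 2 gave 27 and family 3 gave 4. Cyp2c6v1, Cyp2ab1, Cyp2ac1 and Cyp3a23/3a1 fell outside the rule by their spelling and are not described.

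Adult males of the outbred Sprague-Dawley rat strain had lost the right kidney (nephrectomy) or had undergone sham surgery, in which the right renal pedicle was only dissected. The left kidney was taken 24, 48 or 72 h later. No group carried an altered gene or received a drug, and all animals were operated on. Sampled were microdissected glomeruli, microdissected S1 segments (the first stretch of the proximal tubule) and whole left kidney, 24 libraries of each, in 18 groups of 4. RNA of the dissected segments was amplified with NuGEN Ovation V2 and read from a single end, while TruSeq Stranded HT and LT kits served for whole kidney, read from both ends. The labels do not say which of these kits made which whole kidney library, and a kit effect was not tested. Nothing in the labels ties a library to a rat of its own, so p-values measure only the spread between these libraries, which may be technical.

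Microsomal P450 enzymes are haem proteins of the endoplasmic reticulum that insert oxygen into lipids, vitamins, steroids and drugs, with electrons passed on by the reductase Por. Families 1 to 3 hold most of the drug-metabolizing forms, which are best known from liver. In the kidney, members of the Cyp2c and Cyp2j subfamilies make epoxides of arachidonic acid that act on vessels and on sodium transport.

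Gene counts per library ran from 2643258 to 61976179 in glomeruli, from 6402916 to 87368807 in S1 tubules and from 10102869 to 55517383 in whole kidney. Summed podocyte markers were 2510 to 5219 RPKM (reads scaled to gene length and library total) in 23 glomerulus libraries and 3.25 to 19.5 RPKM in 23 S1 libraries, whose early proximal markers summed to 748 to 3549 RPKM. The library labelled glomeruli, sham, 24 h, number 2 had 16.3 RPKM of podocyte and 2882 of early proximal markers, and the library labelled S1, sham, 24 h, number 2 had 2513 and 204. Both go against their labels and were left out of the comparisons below, except where they are said to be kept. In whole kidney, the libraries numbered 3 and 4 at 24 h, of both surgeries, stood apart: the glucose transporter Slc5a2, a marker of early proximal tubule, was between 0.379 and 1.86 CPM (counts scaled to the library total) there and between 18.4 and 282 CPM in the other 20 libraries.

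The 250 bases before the start are shown for the 4 genes on which the results turn: Cyp2e1, Cyp2c23 and Cyp2f4, which were lower in whole kidney after nephrectomy, and Cyp2j4, the member with the largest excess in glomeruli. The sequences are from a RefSeq promoter table, build GRCr8, which held 31 of the 32 symbols. Cyp1a1 had no entry there and was not searched for motifs. They are written 5′ to 3′ on the gene's own strand: chr1:252863068-252863317 (minus strand) for Cyp2c23, chr1:205269717-205269966 (plus) for Cyp2e1, chr1:91543518-91543767 (plus) for Cyp2f4 and chr5:116323043-116323292 (minus) for Cyp2j4. Capitals mark a TATAAA, the letters of a TATA box.
Cyp2e1: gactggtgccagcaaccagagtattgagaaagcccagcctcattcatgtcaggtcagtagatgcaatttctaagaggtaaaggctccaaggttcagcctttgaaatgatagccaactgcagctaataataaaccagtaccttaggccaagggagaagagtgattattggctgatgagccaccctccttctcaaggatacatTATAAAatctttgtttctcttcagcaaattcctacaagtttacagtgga
Cyp2c23: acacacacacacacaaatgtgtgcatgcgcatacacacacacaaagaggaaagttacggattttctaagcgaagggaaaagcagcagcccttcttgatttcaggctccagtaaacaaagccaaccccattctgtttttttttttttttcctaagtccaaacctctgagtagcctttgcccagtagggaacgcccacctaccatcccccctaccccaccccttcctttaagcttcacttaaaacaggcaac
Cyp2f4: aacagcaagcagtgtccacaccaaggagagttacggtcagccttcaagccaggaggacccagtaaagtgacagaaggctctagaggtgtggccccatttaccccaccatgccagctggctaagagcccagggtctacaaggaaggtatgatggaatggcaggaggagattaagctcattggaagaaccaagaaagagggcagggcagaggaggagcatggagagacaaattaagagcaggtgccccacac
Cyp2j4: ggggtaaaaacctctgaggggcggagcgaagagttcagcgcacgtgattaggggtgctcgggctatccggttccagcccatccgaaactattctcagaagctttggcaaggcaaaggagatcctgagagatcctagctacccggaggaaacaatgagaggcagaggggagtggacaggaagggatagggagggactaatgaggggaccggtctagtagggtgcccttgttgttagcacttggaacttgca
Both strands were searched for 5 motifs. TATAAA was found in 10 of 31 member promoters (32.3%) and in 13.1% of 27457 promoters of all genes. In Cyp2e1 it begins 49 bases before the start. GCGTG, the core bound by the aryl hydrocarbon receptor, was in 7 of 31 (22.6%) and in 27.2% of all. GTTAAT, which is also the outer part of the full HNF1 site, was in Cyp2a3, Cyp2b12 and Cyp2d2 (9.68%, against 6.46% of all). CAAAGTCCA, an HNF4 site, was in Cyp3a2 alone (3.23%, against 0.331%), and the full palindromic HNF1 site was in none (0.00364% of all). A match here describes letters in this window only.

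Many of these genes lie side by side. Neighbours were joined when at most 20 places apart in the RefSeq order of protein-coding genes. By this rule Cyp2s1, Cyp2b1, Cyp2b2, Cyp2b3, Cyp2b21, Cyp2b12, Cyp2g1, Cyp2a3, Cyp2f4 and Cyp2t1 form a cluster of 10. Cyp2c11, Cyp2c7, Cyp2c12, Cyp2c13 and Cyp2c22 form a cluster of 5, apart from Cyp2c23. Cyp2d4, Cyp2d5, Cyp2d3 and Cyp2d2 form a cluster of 4. Some copies within the Cyp2b, Cyp2c, Cyp2d and Cyp3a subfamilies are alike, so their reads may have been counted for another copy or for none. How alike the members are was not measured here, so it is not known which values are uncertain for this reason.

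After sham surgery, S1 tubules carried the most P450 message. The summed level of the 34 rows was 993 to 2560 RPKM (median 1827, n = 11) in S1 tubules, 55.4 to 161 RPKM (median 98.5, n = 11) in glomeruli and 235 to 968 FPKM (median 561, n = 12) in whole kidney. FPKM counts fragments in place of reads and comes from another table and kit, so whole kidney is set beside the segments without a test. Cyp2c23 supplied a median of 83.8% of that sum in S1 tubules, 66.9% in whole kidney and 6.02% in glomeruli.

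Cyp2c23, the main arachidonic acid epoxygenase of rat kidney, was the highest member in S1 tubules at 854 to 2257 RPKM (median 1487, n = 11). Cyp2e1, which oxidizes ethanol and small solvents, followed at 103 to 452 RPKM (median 239), and the ranges do not overlap. Cyp2d2, a drug-oxidizing form, came next at 5.35 to 52.7 RPKM (median 19.7), below the range of Cyp2e1 in every library. Cyp2r1, a vitamin D 25-hydroxylase, had 5.03 to 13.7 RPKM (median 9.79) and overlapped with Cyp2d2. Cyp2t1 (median 3.42), Cyp2u1 (1.15), which hydroxylates fatty acids, and Cyp2d4 (1.02) came next, and no other member had a median of 1 RPKM. The next 8 were Cyp2a3 (0.876), Cyp2j10 (0.862), Cyp2f4 (0.578), an ID of Cyp3a9 (0.488), an ID of Cyp2c13 (0.448), Cyp1b1 (0.372), Cyp3a2 (0.347) and Cyp2b12 (0.326), with ranges that overlap.

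In glomeruli the order was another one and flatter. Cyp2j10 led at 12.3 to 18.7 RPKM (median 15.4, n = 11) and Cyp2j4, an epoxygenase of arachidonic acid, followed at 5.76 to 11.3 RPKM (median 9.03), without overlap. The next members could not be told apart by their ranges, and that of Cyp2a3 (1.24 to 18.5 RPKM) also spanned both Cyp2j genes. Cyp2a3 had a median of 8.25, Cyp2t1 of 7.45, Cyp2c23 of 6.75 and Cyp2u1 of 5.19 RPKM. Medians of Cyp2b12 (4.38), Cyp2d4 (4.27), Cyp2c22 (3.30), Cyp2b21 (2.56), Cyp1b1 (2.18) and Cyp2s1 (2.14) lay lower, also with overlap. In whole kidney Cyp2c23 (147 to 655 FPKM, median 363, n = 12), Cyp2e1 (31.8 to 209, median 100.4) and Cyp2d2 (12.8 to 53.0, median 28.2) led again. Cyp2d3 (median 4.98), Cyp2t1 (4.09), Cyp2r1 (4.01), Cyp2j4 (3.90), Cyp2s1 (3.86), Cyp2j10 (3.85) and Cyp1a1 (3.54) followed with overlapping ranges. Below them came Cyp2u1 (3.45), Cyp2d5 (3.18), Cyp2d4 (2.38), an ID of Cyp2c13 (2.31) and Cyp1b1 (1.19).

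A median of 0 was found for 17 of 34 members in whole kidney. Among them were Cyp1a2 and all 4 rows of family 3, the main drug-oxidizing family of liver and gut. Glomeruli listed most of these above 0, for example Cyp3a2 at a median of 2.36 RPKM, Cyp3a18 at 1.35, Cyp3a9 at 2.64 and 3.46 for its 2 IDs, and Cyp1a2 at 0.438. Olfactory receptor genes, a large family of which a few members are known in kidney, were used as a reference for low levels in each assay. Over 1068 of them the median of the sham medians was 0.587 RPKM in glomeruli, 0.0478 RPKM in S1 tubules and 0 FPKM in whole kidney. Of 34 members, 8 lay above the 99th percentile of these genes in glomeruli (3.60 RPKM), 12 in S1 tubules (0.436 RPKM) and 17 in whole kidney (0.0713 FPKM). In glomeruli, no row of family 1 or 3 was among the 8, which were Cyp2a3, Cyp2b12, Cyp2c23, Cyp2d4, Cyp2j4, Cyp2j10, Cyp2t1 and Cyp2u1.

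**Figure D1:**
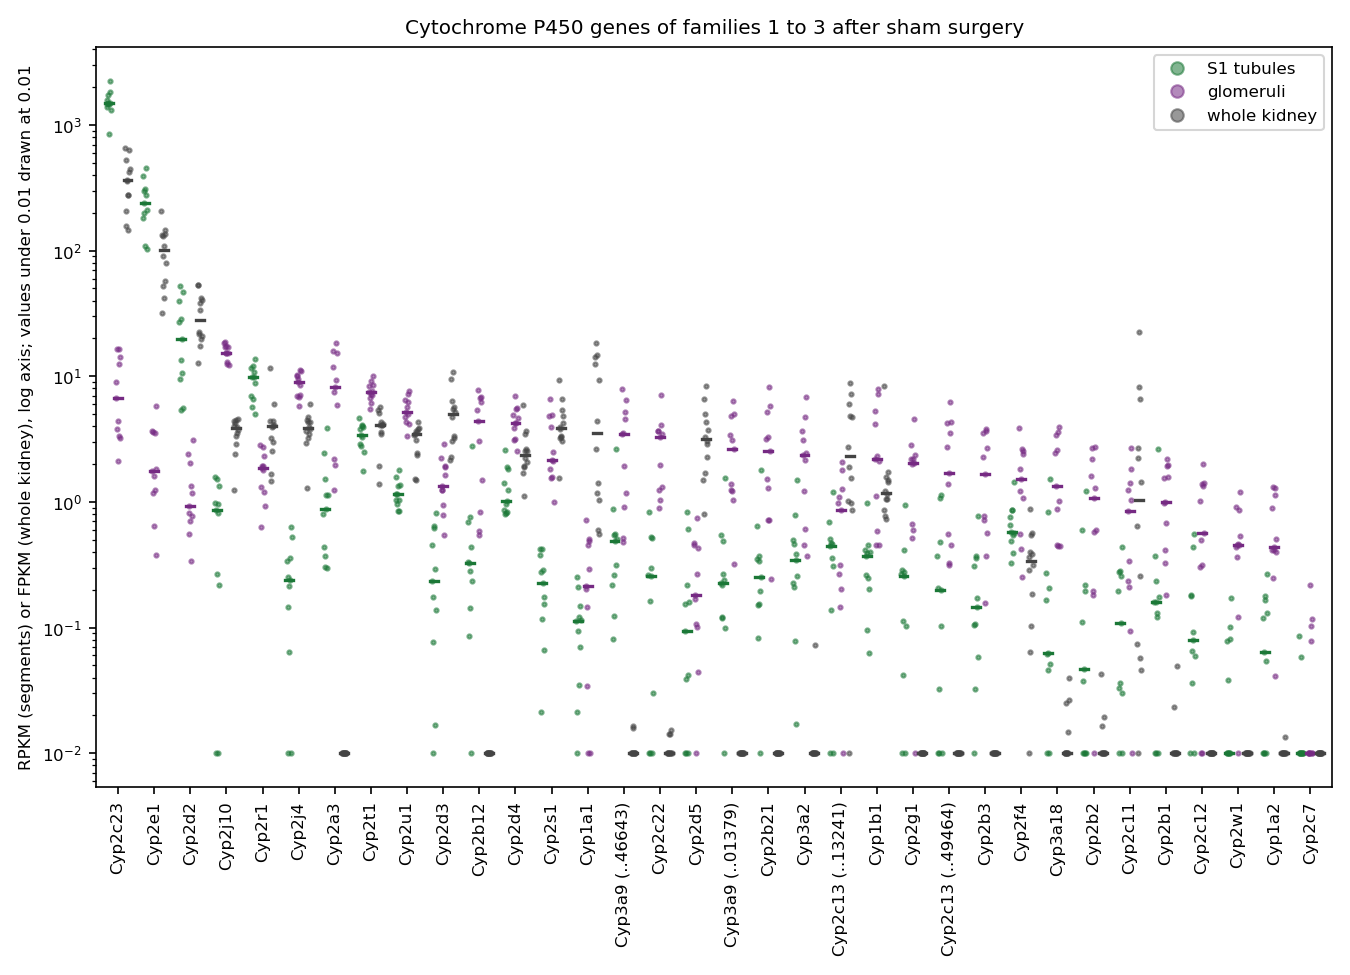
Level of each member after sham surgery on a log axis, in RPKM for S1 tubules (green, 11 libraries) and glomeruli (purple, 11) and in FPKM for whole kidney (grey, 12); each point is a library, the bar is the median, and values under 0.01 are drawn at 0.01. Cyp2c23 and Cyp2e1 stand above the other members in S1 tubules and whole kidney, while in glomeruli Cyp2j10 leads at a median of 15.4 RPKM.

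The difference between the segments was tested over 22 sham libraries with edgeR's quasi-likelihood test, adjusted by Benjamini-Hochberg over all genes. Of 33 members tested, 14 passed an adjusted p of 0.05, where 50.3% of all genes did, so the share of members is not above the background. Lower in glomeruli were 5 members (22.2% of all genes were) and higher were 9 (28.1%). The median log2 fold change was 0.74 over the members and 0.62 over all genes. With the pair that goes against its labels kept, 37.1% of all genes and 8 members were called, namely Cyp2c23, Cyp2d2, Cyp2e1, Cyp2r1, Cyp2j4, Cyp2j10, Cyp2s1 and Cyp2w1.

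The 4 members that set S1 tubules apart were lower in glomeruli by a wide margin. Cyp2c23 had a log2 fold change of -9.38 ± 0.42 (SE, edgeR adjusted p = 8.2e-18), and its glomerulus libraries at 2.11 to 16.5 RPKM lay far below its S1 libraries. Cyp2e1 differed by -8.67 ± 0.47 (adjusted p = 5.4e-16), Cyp2d2 by -5.89 ± 0.40 (9.1e-14) and Cyp2r1 by -4.17 ± 0.27 (3.2e-14). All 4 calls held in each of the 7 other settings and with each of the 22 libraries left out in turn.

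Cyp2j4 was the member with the largest excess in glomeruli, at a log2 fold change of 3.53 ± 0.42 (edgeR adjusted p = 1.6e-08). In S1 tubules it was at most 0.632 RPKM after sham surgery, so the groups did not overlap. Its neighbour Cyp2j10 was higher by 2.73 ± 0.43 (2.6e-06), and Cyp2s1, an oxidase of retinoids, by 1.99 ± 0.38 (4.8e-05). These 3 also held in every setting. The other 6 called higher were Cyp2w1 (2.14), Cyp2c22 (1.73), 1 ID of Cyp3a9 (1.35), Cyp2b12 (1.15), Cyp1b1 (1.15) and Cyp2a3 (1.10).

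Olfactory receptor genes, mostly low in both segments, had a median log2 fold change of 1.34 in the same comparison, with quartiles of 0.95 and 1.77, and 178 of 806 were called higher (22.1%). Of the 6 members just named, Cyp2w1 lies above these quartiles and the other 5 between them, and the part of the olfactory receptor shift in the 6 calls was not tested. Not all low members were higher, since Cyp2d5 (-1.08), an ID of Cyp2c13 (-0.91), Cyp1a1 (-0.61) and Cyp2f4 (-0.59) had values below 0 that did not pass. With library totals and no scaling factors, the median of all genes moved by 1.68 to 2.30, and 26 members were then called higher and 4 lower, where 83.8% of all genes were called higher and 6.52% lower. With DESeq2 size factors, 12 members were called higher and 4 lower, against 37.7% and 18.8% of all genes. Cyp2t1, called lower at -0.55, reversed to 1.15 with library totals and was not called with size factors.

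**Figure D2:**
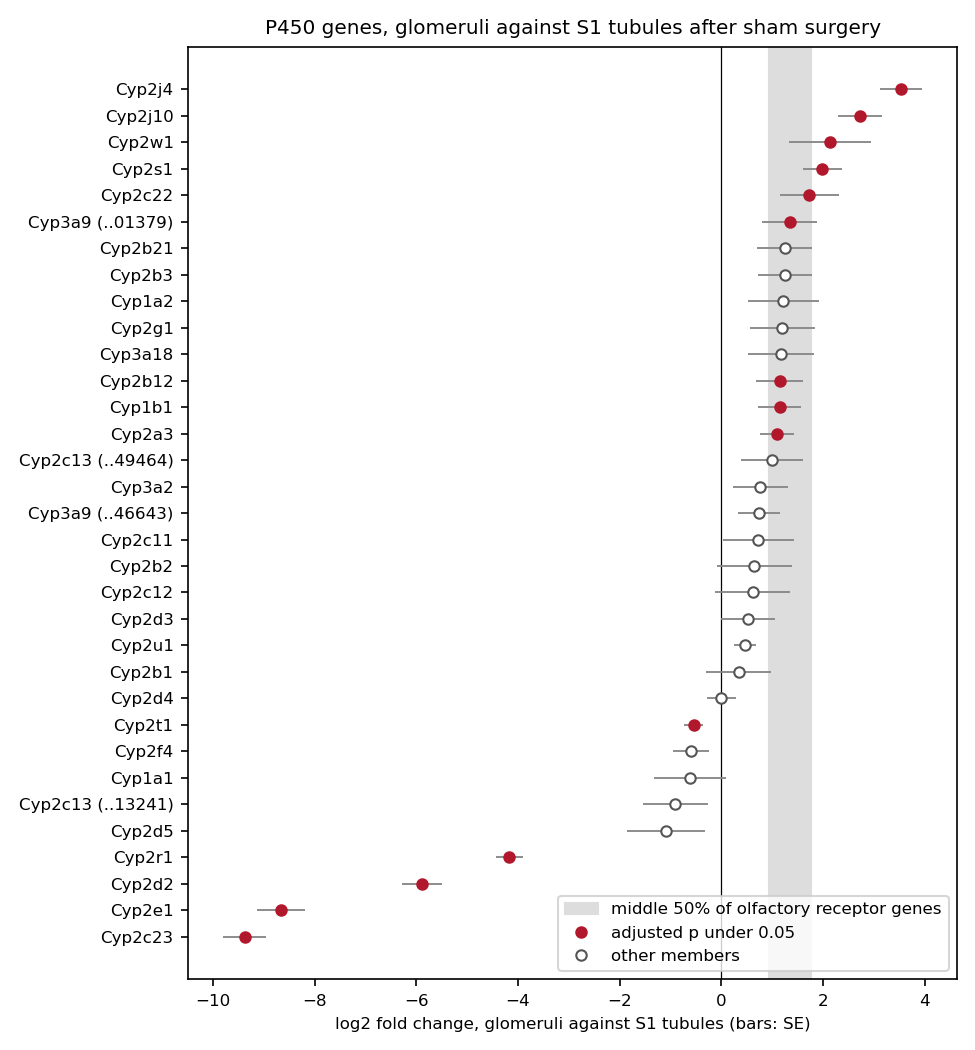
Log2 fold change of 33 members between glomeruli and S1 tubules after sham surgery, with bars of 1 SE; filled points passed an adjusted p of 0.05 and the grey band spans the quartiles of olfactory receptor genes, 0.95 to 1.77. Cyp2c23, Cyp2e1, Cyp2d2 and Cyp2r1 lie at -4.17 or lower, and Cyp2j4, Cyp2j10, Cyp2w1 and Cyp2s1 lie above the band.

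The design asks what the remaining kidney's transcripts do after its partner is lost. In whole kidney, 3 P450 genes were lower after nephrectomy over the 3 times, and none was higher: Cyp2e1, Cyp2c23 and Cyp2f4, the last a lung form that oxidizes naphthalene. They were 3 of 17 members tested, where 2.86% of all genes were called in either direction and 1.17% lower. The median log2 fold change was -0.22 over the 17 members and -0.01 over all 15678 genes tested. Only members with enough counts entered, so the other 17 rows carry no test here. In a whole organ, fewer cells of a type and less RNA per cell cannot be told apart.

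Cyp2e1 was at 62.7, 60.1, 33.8 and 20.7 CPM, scaled by edgeR's TMM factors, at 24 h after nephrectomy and at 323, 152, 127 and 162 after sham. At 48 h it was at 128, 62.9, 84.9 and 37.4 against 165, 192, 85.5 and 202, and at 72 h at 53.2, 53.5, 68.0 and 64.9 against 98.5, 204, 217 and 123.4. The groups were apart at 24 and 72 h, and at 48 h the sham library number 3 fell within the nephrectomy range. All 12 nephrectomy libraries lay below the sham mean of their time. That also held for Cyp2j10 and Cyp2t1, which were not called, and the share of all genes was not counted. The log2 fold change of Cyp2e1 was -1.52 ± 0.22 over the 3 times (edgeR adjusted p = 0.0047), a 2.87-fold lower level.

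Cyp2c23 was at 357, 359, 469.5 and 223 CPM after nephrectomy at 24 h and at 1070.2, 647, 666 and 673 after sham. The 48 h values overlapped, at 569, 535, 402 and 204 against 705, 554, 316 and 543. At 72 h they did not, at 369, 369, 437 and 327 against 503, 676, 993 and 736. Nephrectomy libraries were below the sham mean of their time in 10 of 12 cases. Its log2 fold change was -0.79 ± 0.17 (edgeR adjusted p = 0.015).

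Cyp2f4 was scarce, with 0 to 70 counts per library. After nephrectomy it had 0.0581, 0.0357, 0 and 0 CPM at 24 h, 0.663, 0.462, 0.297 and 0.0827 at 48 h, and 0.235, 0.151, 0.233 and 0.245 at 72 h. After sham it had 0.589, 0.347, 0 and 0.207, then 0.76, 1.36, 0.219 and 1.05, then 0.336, 0.889, 0.6 and 0.512. Only the 72 h groups were apart. All 12 nephrectomy libraries were below the sham mean of their time, as they were for the uncalled Cyp2j10 and Cyp2t1. The log2 fold change of Cyp2f4 was -1.86 ± 0.43 (edgeR adjusted p = 0.023).

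**Figure D3:**
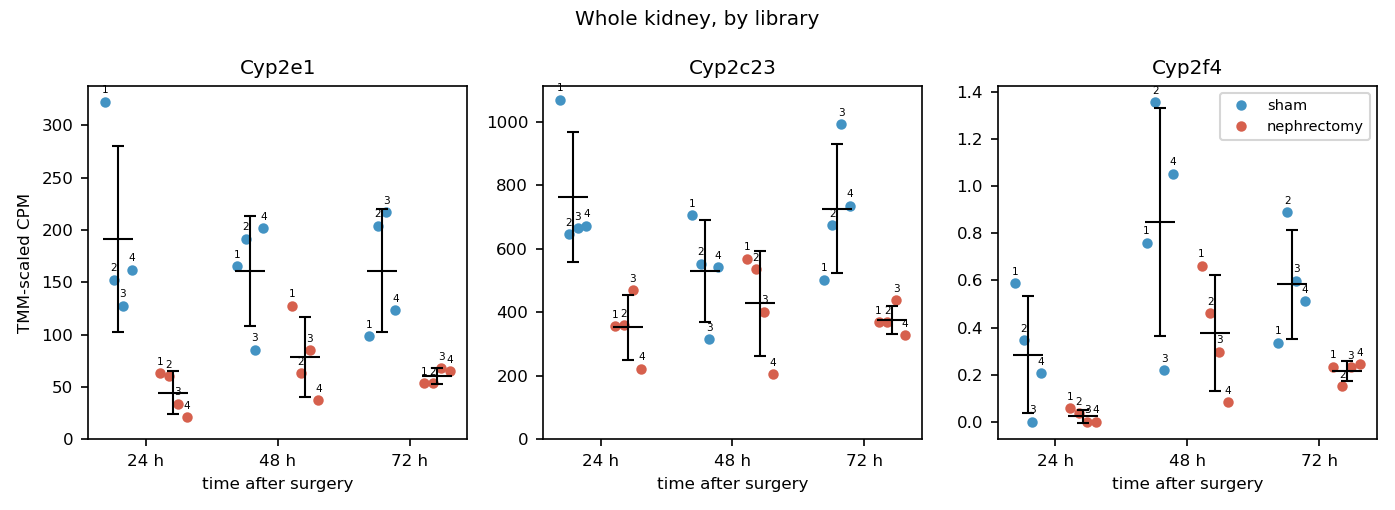
TMM-scaled CPM of Cyp2e1, Cyp2c23 and Cyp2f4 in each whole kidney library by time and surgery, with library numbers and bars of the mean ± SD of 4. Nephrectomy libraries (red) of Cyp2e1 lie between 20.7 and 128 CPM and sham libraries (blue) between 85.5 and 323.

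Part of this result depended on the scaling. With library totals in place of TMM factors (which ran from 0.452 to 1.57 in whole kidney), an alternative chosen after the data were seen, only Cyp2e1 stayed called over the 3 times. Cyp2c23 then had an adjusted p of 0.068 and Cyp2f4 of 0.057, with both still below 0. That choice moved the median of all genes by -0.30 at 24 h and 0.27 at 48 h, and the calls of all genes from 265 higher and 183 lower to 100 higher and 21 lower. All 3 calls held with each of 24 libraries left out in turn, and without the 24 h libraries numbered 3 and 4, where Cyp2e1 was at -1.48, Cyp2f4 at -1.91 and Cyp2c23 at -0.84 and 4.87% of all genes were called.

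By time, the clearest value was again that of Cyp2e1. At 24 h it was lower by -2.10 ± 0.39 on the log2 scale (edgeR adjusted p = 0.034), the only one of 17 members called, with 0.236% of all genes called (0.0893% higher and 0.147% lower). That call was lost under library totals (adjusted p = 0.067) and in 4 of 8 cases of a left-out library: nephrectomy number 2, 3 or 4, or sham number 1. Without the libraries numbered 3 and 4, Cyp2c23 (-1.27), Cyp2f4 (-3.17) and Cyp2d2 (-1.61) were called too, with 16.4% of all genes. DESeq2 called Cyp2e1, Cyp2c23 and Cyp2d2 at 24 h, with 2.13% of all genes.

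Over 48 and 72 h alone, Cyp2e1 was lower by -1.23 ± 0.27 (edgeR adjusted p = 0.030), with 0.982% of all genes called (0.899% higher and 0.0829% lower). This call was lost under library totals (0.15) and without any of 11 of 16 libraries: nephrectomy 48 h number 4, nephrectomy 72 h numbers 1 to 4, sham 48 h numbers 1, 2 and 4, and sham 72 h numbers 2 to 4. The lowest and highest of these left-out values were -1.40 and -1.13. At 48 h and at 72 h taken alone, edgeR and DESeq2 called 0 members (0% of all genes at 48 h, and at 72 h 0.00638%, all higher). In edgeR 4 members had an unadjusted p under 0.05 at each time, with 10.3% of all genes at 48 h and 5.2% at 72 h. The effect of nephrectomy differed between times for 0 members (smallest edgeR adjusted p = 0.71, DESeq2 0), where 0.0191% of all genes were called. Unadjusted, 1 member was under 0.05 (4.99% of all genes).

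Without a test, 9 of the members stood apart at some time on the CPM scale. At 24 h all nephrectomy libraries were below all sham libraries for Cyp2c23, Cyp2d2 and Cyp2e1 (1.62% of all genes) and above them for Cyp2d3 (1.69%). At 48 h Cyp2c11 and Cyp2t1 were below (3.81%) and Cyp2s1 and Cyp2u1 above (3.43%). At 72 h Cyp2c23, Cyp2e1, Cyp2f4 and Cyp2t1 were below (5.43%). On the FPKM scale, Cyp2e1 alone was below at 24 h (0.191% of all genes). At 48 h Cyp2c11 was below (0.274%) and Cyp2s1 and Cyp2u1 were above (7.37%), and at 72 h Cyp2e1 and Cyp2f4 were below (4.96%).

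Early proximal markers had values below 0 beside these genes. Over the 3 times 6 of 6 did (median log2 fold change -0.38) and at 24 h 6 of 6 (median -0.78), while over 48 and 72 h 5 of 6 did and Slc5a2 was at 0.33. Of all genes, 51.4%, 53.2% and 48.9% were below 0 in these 3 comparisons. Other lists did so too: immune markers in 6 of 6 at 24 h and 5 of 6 over the 3 times. Over 48 and 72 h, 5 of 5 endothelial and 6 of 7 podocyte markers were below 0. Loop and distal markers were below 0 in 0 of 6 over the 3 times. None of the 6 early proximal markers was called in these 3 comparisons. Their sum was 293 to 1048 FPKM after nephrectomy (median 808) and 274 to 1831 after sham (median 951). The list for the later S3 segment summed to 612 to 1001 FPKM against 524 to 1064. Over the 3 times 3 markers of other lists were called: the S3 gene Slc27a2 lower (-0.48, edgeR adjusted p = 0.028), the smooth muscle gene Tagln higher (0.67, 0.0079) and the collecting duct gene Avpr2 higher (0.47, 0.014). The part of these cell markers in the lower P450 levels was not tested.

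**Figure D4:**
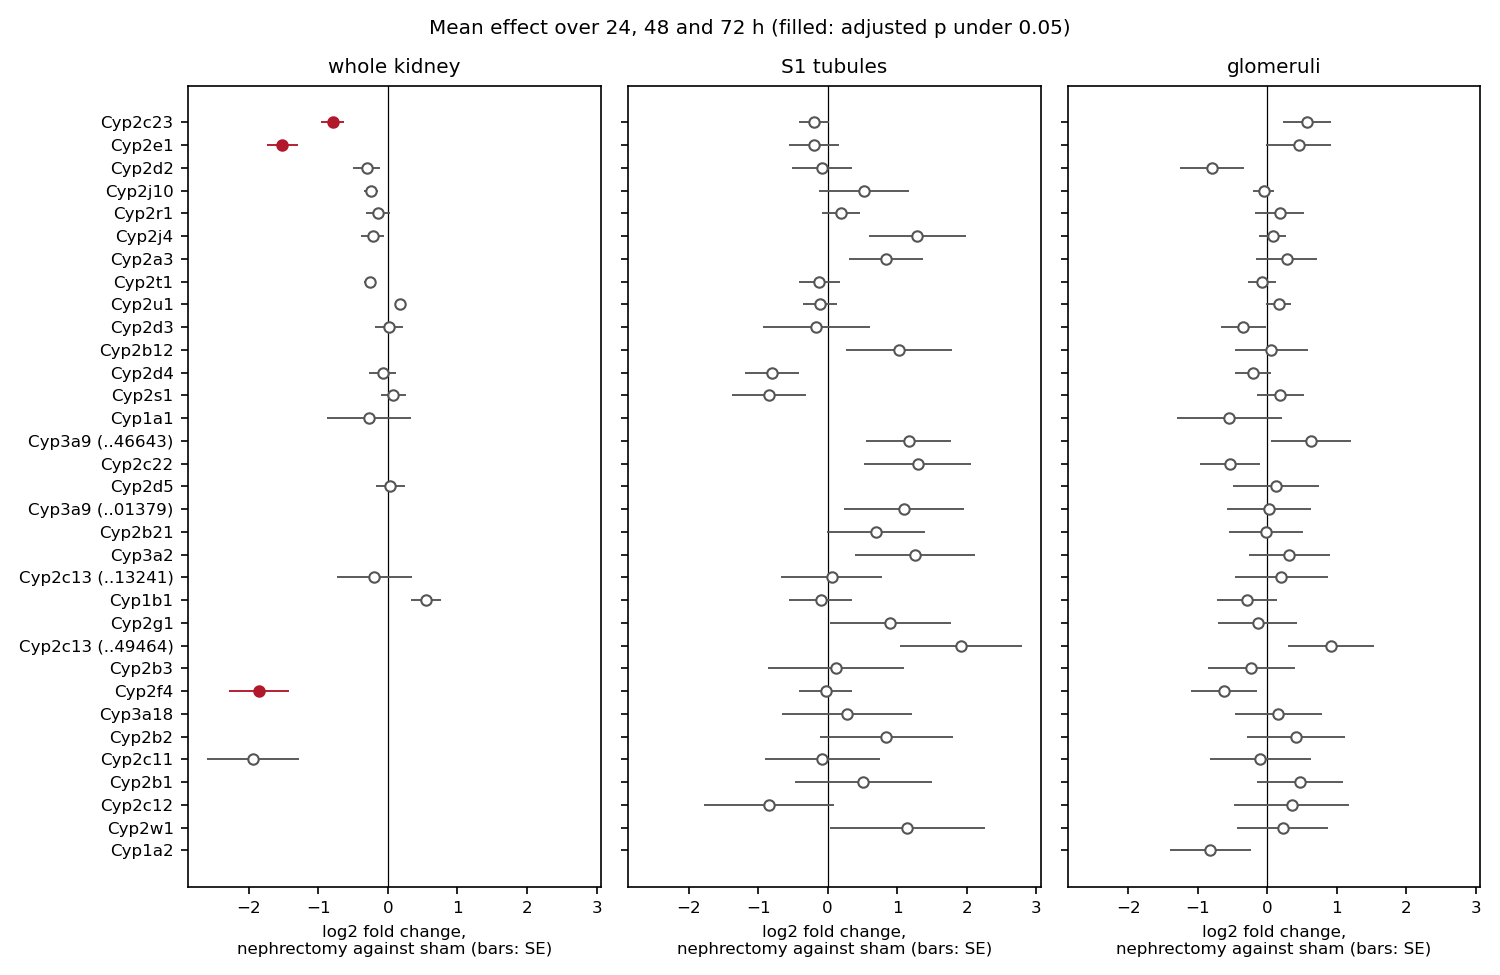
Log2 fold change of nephrectomy against sham for each member over the 3 times, with bars of 1 SE, in whole kidney, S1 tubules and glomeruli; filled points passed an adjusted p of 0.05. Cyp2e1 (-1.52), Cyp2c23 (-0.79) and Cyp2f4 (-1.86) are filled in whole kidney and none in the segments.

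Some members in whole kidney varied widely between libraries of a group. The biological coefficient of variation was 1.14 for Cyp2c11, the male-specific form of rat liver, 0.959 for Cyp2c13 and 0.961 for Cyp1a1, a target of the aryl hydrocarbon receptor, against 0.248 in common over all genes. Cyp2c11 was at 3.78, 31.1, 15.8 and 11.4 CPM in the sham libraries at 48 h and at most 7.78 CPM in every other library, and its 48 h log2 fold change of -3.83 ± 1.13 did not pass (adjusted p = 0.20). In those 4 libraries, the 7 hepatocyte genes were at 2.31 to 3.80 CPM for Apoc3, 0.631 to 1.54 for Fgb, 0.0735 to 0.330 for Apoa1, 0.136 to 0.172 for Alb, at most 0.049 for Serpina1, at most 0.0388 for Ahsg and 0 for Ttr. Every one of these 7 reached a higher value in some other whole kidney library, and their part in the Cyp2c11 values was not tested.

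Cyp1a1 ranged from 1.07 to 117 CPM with no order by surgery. At 48 h it was at 117, 13.8, 51.2 and 1.07 CPM after nephrectomy and at 11.7, 31.5, 3.51 and 1.59 after sham, and its log2 fold change over the 3 times was -0.27 ± 0.61 (adjusted p = 0.86). Cyp1b1, a form of family 1 expressed mostly outside the liver, was at 6.03, 6.70, 6.84 and 3.77 CPM at 72 h after nephrectomy and at 2.57, 3.05, 3.15 and 3.81 after sham, where a nephrectomy library overlaps. Its value over the 3 times was 0.54 ± 0.21 (adjusted p = 0.18), and 2 of 12 nephrectomy libraries were below the sham mean of their time. Over the 3 times, 8 of 17 members had an unadjusted edgeR p under 0.05 (17.5% of all genes). Besides the 3 called members and Cyp1b1, these were Cyp2c11 (-1.94, adjusted p = 0.12), Cyp2t1 (-0.25), Cyp2j10 (-0.24) and Cyp2u1 (0.18), which did not pass.

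**Figure D5:**
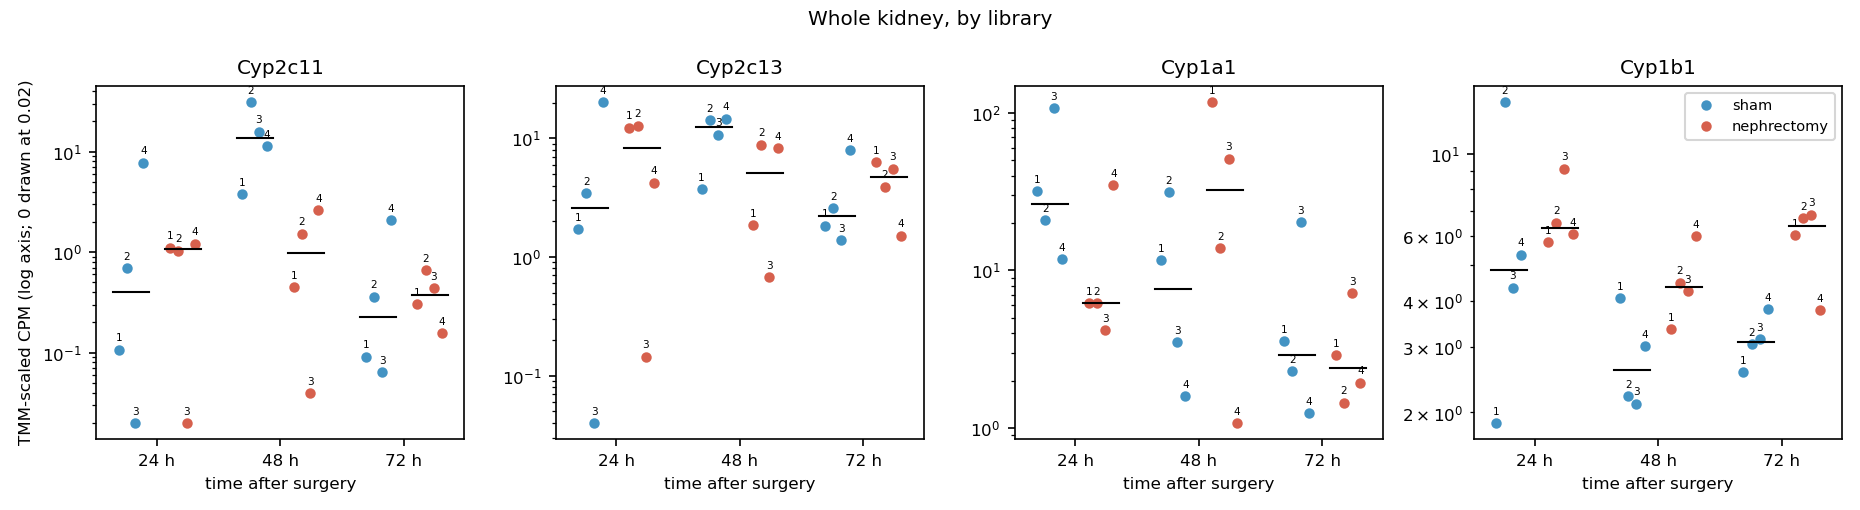
TMM-scaled CPM of Cyp2c11, Cyp2c13, Cyp1a1 and Cyp1b1 in each whole kidney library on a log axis, with 0 drawn at 0.02 and lines at the group medians. Cyp2c11 is highest in the 48 h sham libraries, 3 of which exceed 7.78 CPM, and Cyp1a1 spreads from 1.07 to 117 CPM.

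In S1 tubules edgeR called no member at any time or over the 3 times (0 of 30, 0% of 18372 genes), and DESeq2 called 4 at 72 h and 0 elsewhere. Cyp2c23 was at -0.19 ± 0.21 and Cyp2e1 at -0.20 ± 0.36 over the 3 times (edgeR adjusted p = 1.00 for both), and whether these differ from whole kidney was not tested, since the tables and kits differ. At an unadjusted p under 0.05, edgeR gave 1 member at 24 h (0.729% of all genes) and 1 at 48 h (1.96%). It gave 9 at 72 h (13.2%) and 2 over the 3 times (2.54%). Between times 0 members were called (0.0109% of all genes, DESeq2 0), and 8 were under an unadjusted 0.05 (7.15% of all genes). All nephrectomy libraries were below all sham libraries for Cyp2d2 at 24 h, 4 against 3 (1.58% of all genes), and for Cyp2c12 at 48 h (2.80%), where it had 0 to 1 counts against 1 to 11.

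The 9 members at 72 h rested on a single library. Nephrectomy 72 h number 2 had 14.4 RPKM of Cyp2j4, where the other 3 libraries had 0.101, 0.201 and 0.713, and 14.4 RPKM of Cyp2j10 and 37.5 of Cyp2a3. It also had the highest podocyte (19.5 RPKM), endothelial (37.5) and mesangial (29.5) sums and the lowest early proximal sum (748) of the 23 S1 libraries. Of its uniquely placed reads 8.05% were counted in genes, the lowest share of all 24 S1 libraries (median 62.9%). The part of these markers and of this low share in its P450 values was not tested. Without it, a check described after the data were seen, 2 other members, Cyp2c11 and Cyp2c12, were under an unadjusted 0.05 (4.75% of all genes, 13.2% with it), and the log2 fold change of Cyp2j4 went from 3.52 to 0.05. DESeq2 called 4 members at 72 h with that library in, Cyp2a3, Cyp2c22, Cyp2j4 and 1 ID of Cyp2c13, with 4.36% of all genes.

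In glomeruli nephrectomy called no member (0 of 33, 0% of 22405 genes, DESeq2 0). In CPM no member's groups were apart, where 1.36, 1.29 and 0.799% of all genes were below at 24, 48 and 72 h and 1.43, 0.763 and 0.317% above. Cyp2j10 was at 10.9, 16.0, 16.6 and 7.64 RPKM at 24 h after nephrectomy and at 18.6, 18.7 and 17.0 after sham. Cyp2j4 was at 7.68, 7.03, 11.9 and 9.92 RPKM at 48 h after nephrectomy and at 9.45, 9.03, 6.88 and 5.76 after sham. The Cyp2j10 groups are apart in RPKM though not in CPM. The share of all genes apart in RPKM was not counted for glomeruli, so nothing is read from this. The Cyp2j4 groups overlap, and neither gene passed. At an unadjusted p under 0.05 edgeR gave 0 members at 24 h, at 48 h and over the 3 times (0.919, 1.36 and 2.11% of all genes). At 72 h, 4 members had an unadjusted p under 0.05 (2.9% of all genes), Cyp2b2, 1 ID of Cyp2c13 and both of Cyp3a9. Nephrectomy library number 3 of that time is the shallowest, at 2643258 counts. With or without it 0 members were called, which does not tell whether the unadjusted values of these 4 members rest on it. Between times 0 were called (0.00446% of all genes), and 2 were under an unadjusted 0.05, both Cyp3a9 (1.04% of all genes).

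In whole kidney over the 3 times, 3 of the 5 lists of partner genes held calls, all lower, where 2.86% of all genes were called and 1.17% lower. Electron donors gave 0 of 6 (median log2 fold change -0.16), with Cyb5a at -0.26, Pgrmc1 at -0.23, Por at -0.20 and Cyb5r3 at -0.13. Haem genes gave 0 of 12 (median -0.11). Alad, an early enzyme of haem synthesis, was at -0.54 (edgeR adjusted p = 0.050, and called with DESeq2 size factors), Urod at -0.17, Hmox2 at -0.21 and Hmox1, which degrades haem, at 0.58 (0.27). Transcription factors of P450 genes gave 1 lower of 17, the bile acid receptor Nr1h4 (-0.49 ± 0.12, adjusted p = 0.022), with Hnf4a at -0.22 (0.14) and the glucocorticoid receptor Nr3c1 at -0.26 and -0.19 for its 2 rows. Other aryl hydrocarbon receptor targets gave 1 lower of 4, the glutathione transferase Gsta2 (-0.98 ± 0.23, adjusted p = 0.023), with Aldh3a1 at -0.82, Tiparp at -0.37 and Nqo1 at 0.21. Epoxide hydrolases and conjugating enzymes gave 2 lower of 11, the flavin monooxygenases Fmo1 (-0.72, 0.015) and Fmo2 (-0.48, 0.028), with Ephx1 at -0.38 (0.086) and Fmo5 at -0.30 (0.053). With library totals only Gsta2 stayed called (0.048).

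Between the segments most calls were lower in glomeruli in these lists other than the receptor targets, though for haem genes and transcription factors only with TMM or size factors. The aryl hydrocarbon receptor targets had 1 lower and 1 higher with TMM, 1 and 3 with library totals, and 1 and 2 with size factors. Por was lower in glomeruli by -2.74 ± 0.21, Hnf4a by -8.41 ± 0.33, Fmo1 by -7.79 and the soluble epoxide hydrolase Ephx2 by -4.60 ± 0.20, each with the same sign under library totals and DESeq2 size factors. Counts with TMM were 4 lower and 1 higher of 6 electron donors and 10 lower and 0 higher of 12 haem genes. They were 9 lower and 3 higher of 18 rows of transcription factors and 1 lower and 1 higher of 4 receptor targets. For hydrolases and conjugating enzymes they were 9 lower and 1 higher of 12. With TMM, 22.2% of all genes were lower in glomeruli and 28.1% higher. With library totals the haem list turned to 2 lower and 4 higher and the transcription factors to 6 lower and 9 higher, where 6.52% of all genes were lower and 83.8% higher.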

How the data were processed

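RNA-seq of 72 libraries was analysed from 2 deposited tables of whole-number read counts per gene, for which the submitters' processing notes list the authors' tools as HTSeq, SAMtools, STAR 2.4.0.1 and Trimmomatic 0.32. Per the file headers, the authors deposited RPKM for the segments and FPKM for whole kidney. The sources used here give no genome build, annotation or strand setting, and mention no molecular identifiers. Entries that name no gene were left out of totals and tests.

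In R 4.3.3, edgeR 4.0.16 was fitted by tissue with TMM factors and filterByExpr (minimum count 10), a mean for each of 6 groups and the quasi-likelihood F test, on 23 glomerulus, 23 S1 and 24 whole kidney libraries; 22 sham libraries gave the segment comparison. Adjustment was by Benjamini-Hochberg over all genes, at 0.05, and SE was taken as the absolute log2 fold change divided by the root of F. DESeq2 1.42.0, its size factors, no filter, a replicate block, library totals and left-out libraries were alternatives. The procedure was tested on simulated data. Among 108 pairs of libraries of a group, 0 were identical. Members, lists and alternatives were chosen with earlier results of these data known. Named were members called in any comparison, the 15 highest after sham in each tissue, fixed members of known role and, of each pathway list, up to 4 with the smallest p in whole kidney. Cyp2d1 and Cyp2j3, which that rule names, have no row under these symbols among the members, so they were not analysed here.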

Additional observations from a re-analysis of the deposited data

Results flagged for a closer look

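A library far from the other 3 of its group was looked for in 162 groups of 4, with 7 whole kidney members in CPM and 6 segment members in RPKM and in CPM, and 21 had one; chance gives about 1 in 20. RPKM and CPM of one group are the same libraries on 2 scales, so these are not 21 separate cases. The segment members were first examined in CPM, and RPKM, the scale used for levels, was added after those results were seen; both are given. The segment list was for a time reduced to 3 members after results were seen, and all 6 are given here.

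In whole kidney, Cyp1a1 was highest in nephrectomy 24 h number 4 (34.7 CPM) and sham 72 h number 3 (20.3). Cyp2c11 was lowest in nephrectomy 24 h number 3 (0) and highest in sham 24 h number 4 (7.78) and sham 72 h number 4 (2.09), and Cyp2c13 was highest in sham 24 h number 4 (20.2). Cyp2c23 was highest in sham 24 h number 1 (1070.2), and Cyp2f4 lowest in nephrectomy 72 h number 2 (0.151).

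In S1 tubules, nephrectomy 72 h number 2 was highest for Cyp2j4 (14.4 RPKM, 27.4 CPM) and Cyp2j10 (14.4 RPKM, 23.05 CPM). Cyp2c23 was highest in nephrectomy 24 h number 2 (4480.4 CPM) and sham 72 h number 2 (6254 CPM), and Cyp2j4 lowest in nephrectomy 24 h number 2 (0.0708 CPM). In glomeruli, Cyp2c23 was highest in sham 48 h number 1 (16.5 RPKM, 32.1 CPM), Cyp2r1 in sham 48 h number 4 (2.75 RPKM), Cyp2j10 in sham 48 h number 2 (34.5 CPM) and Cyp2j4 in nephrectomy 72 h number 3 (23.8 RPKM, 34.3 CPM), which is the shallowest library at 2643258 counts.

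The pair left out for its markers held values above every other library of its label: 2324 RPKM of Cyp2c23 and 673 of Cyp2e1 in the library labelled glomeruli, and 14.6 of Cyp2j4 in that labelled S1.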

How the results depend on the processing

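Counts of members called stayed within 1.5 times the reported count in 323 cases and did not in 25. Many of the 323 were comparisons with 0 calls that stayed at 0. In whole kidney the count moved for 5 of 8 left-out libraries at 24 h and for 11 of 16 over 48 and 72 h. At 24 h in whole kidney the count of 1 became 3 with DESeq2, 0 with library totals and 4 without the libraries numbered 3 and 4. With library totals the 3 over all times became 1, and the 1 over 48 and 72 h became 0. In S1 tubules at 72 h DESeq2 called 4. Between segments 14 became 30 with library totals (90.4% of all genes), 8 with the left-out pair kept (37.1%) and 8 with 48 and 72 h alone (44.9%). Under library totals Cyp2t1 (1.15) and Cyp2f4 (1.14) reversed between segments. The cause of these changes was not tested. Leaving out each library in turn gave 0 to 3 calls at 24 h, 3 to 4 over all times and 0 to 1 over 48 and 72 h in whole kidney. Between segments it gave 11 to 19, and elsewhere 0. The shares of all genes in these left-out fits are not given here. Same-numbered libraries did not deviate together in every pair (6 of 12 pairs over a correlation of 0.1 in whole kidney, 5 of 11 in S1 tubules, 2 of 11 in glomeruli and 8 of 11 between segments), and with the replicate block 3 members were called over all times (2.67% of all genes), 1 at 24 h (0.115%) and 1 over 48 and 72 h (1.15%) in whole kidney, 17 between segments (53.0%) and 0 elsewhere. Depth limits Cyp2f4, at 0 to 70 counts, and the shallow segment libraries.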
